A study of Arabidopsis thaliana with 5 samples.

Results

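Class I small heat shock genes encode cytosolic chaperones, and 4 such genes of Arabidopsis thaliana, AT1G53540, AT1G07400, AT1G59860 and AT2G29500, were taken for description in clipped plants. The 4 were picked from results on these same arrays with their values already known, so their levels are given as a description and without a test of their own. Only genes with a probe set that names exactly 1 gene were read, which left AT1G53540 and AT2G29500, 2 of the 13286 genes so named on the array. AT1G59860 and AT1G07400 shared 1 probe set and had none of their own. Tissue labelled as secondary meristem was compared between clipped Columbia (3 arrays) and clipped Landsberg erecta (2 arrays), accessions that the design text describes as compensating differently after damage. Every plant was raised in a greenhouse from seed given 3 days of cold, under the same daily hours of light and dark. Each was cut when it bolted, to mimic browsing, and sampled a day later, so damage and its timing were common to both groups. The titles number the arrays as biological replicates, and whether plants were pooled is not stated in them. Precision is limited by there being 5 arrays.

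Small heat shock proteins hold unfolding proteins in a soluble form without using ATP, and pass them to chaperones of the HSP70 and HSP100 families for refolding. In plants the class I members assemble into large oligomers in the cytosol. Heat shock factors switch their genes on within minutes of heat, and many of them are also active without heat in developing flowers and seeds.

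Both genes with a probe set of their own were higher on every Columbia array than on either Landsberg erecta array, while the probe set shared by the other 2 genes overlapped between them. AT1G53540 had log2 values of 5.75, 5.48 and 4.72 on Columbia replicates 1 to 3, against 4.62 and 3.66 on Landsberg erecta replicates 1 and 2. The ecotypes were thus separated by 0.10 on the log2 scale, the distance from Columbia replicate 3 down to Landsberg erecta replicate 1. Columbia averaged 5.32 ± 0.53 (SD, n = 3) on the log2 scale and Landsberg erecta averaged 4.14 ± 0.68 (SD, n = 2), so that Columbia minus Landsberg erecta came to 1.18, or 2.26-fold. Arrays of a single ecotype lay almost as far apart, by up to 1.02 in Columbia and by 0.96 in Landsberg erecta. The size of the difference rested on Landsberg erecta replicate 2, and it was 0.70 without that array.

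AT2G29500 had log2 values of 7.57, 6.85 and 6.60 on Columbia replicates 1 to 3, against 6.04 and 6.33 on Landsberg erecta replicates 1 and 2. Columbia replicate 1 stood highest, and the gap between the ecotypes, from Columbia replicate 3 down to Landsberg erecta replicate 2, was 0.27. Columbia averaged 7.00 ± 0.50 (SD, n = 3) and Landsberg erecta averaged 6.19 ± 0.20 (SD, n = 2) in log2 units, so that the means differed by 0.82, or 1.76-fold. Within Columbia the arrays spanned 0.97, more than that difference, and within Landsberg erecta they spanned 0.28. The difference was 0.54 without Columbia replicate 1.

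Absence of overlap in this direction was found for 891 of 22746 probe sets, a share of 3.92%, and it is given beside the 2 genes only as background, because they were known to separate the ecotypes when they were taken. Among those 891, the difference of AT1G53540 ranked 3 and that of AT2G29500 ranked 11, and AT1G53540 was 1 of 4 whose means lay at least 2-fold apart. These ranks were likewise partly set by taking the 2 genes with their values known. The median difference among the 891 was 0.23. By limma with Benjamini-Hochberg adjustment no probe set on the array was called higher in Columbia (0 of 22746, 0%) or in Landsberg erecta (0, 0%), at an adjusted p under 0.05. At an unadjusted p under 0.05, limma gave 265 in the first direction (1.17%) and 141 in the second (0.62%).

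**Figure D1:**
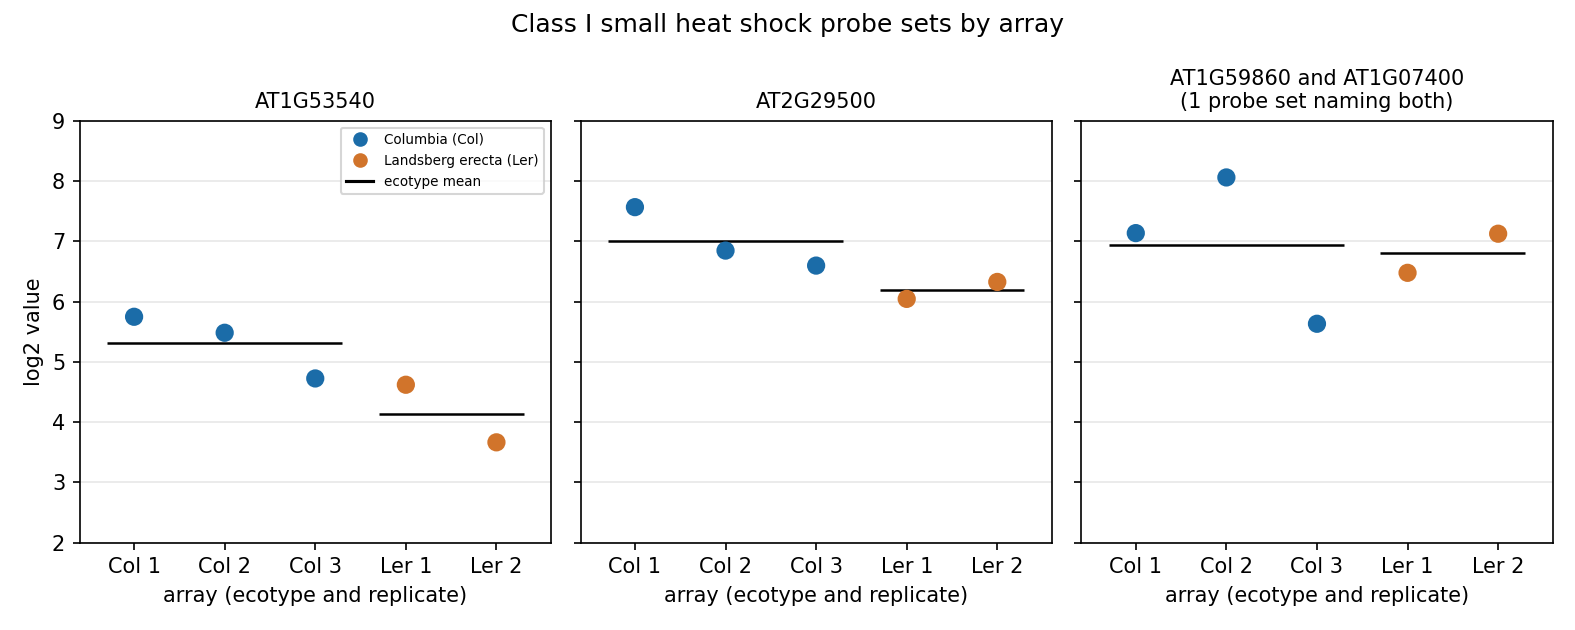
Log2 values of the 3 class I small heat shock probe sets (vertical axis) on each of the 5 arrays (horizontal axis), 1 panel per probe set, with Columbia in blue at the left, Landsberg erecta in orange and a black line at each ecotype's mean. AT1G53540 and AT2G29500 show no overlap between the ecotypes, with gaps of 0.10 and 0.27, and the probe set naming AT1G59860 and AT1G07400 overlaps.

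AT1G59860 and AT1G07400 could not be read apart, since the single probe set for them names both, and no value is given to either gene. That probe set had log2 values of 7.14, 8.06 and 5.63 on Columbia replicates 1 to 3, against 6.48 and 7.13 on Landsberg erecta replicates 1 and 2. Columbia held both its highest and its lowest value, 2.43 apart. Only 95 of the 22746 probe sets spanned more over the 5 arrays.

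The 2 genes belonged to the widely varying probe sets of the array. This is partly fixed by their choice with values known, since a span cannot be smaller than the difference of the ecotype means. AT1G53540 spanned 2.08 on the log2 scale over the 5 arrays, more than 99.3% of all probe sets, although its mean was above that of only 45.8% of them. AT2G29500 spanned 1.52, more than 98.3% of all probe sets, with a mean above that of 62.0%. Each had 5 distinct values, whereas 6318 probe sets of the array held 1 value on all arrays.

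**Figure D2:**
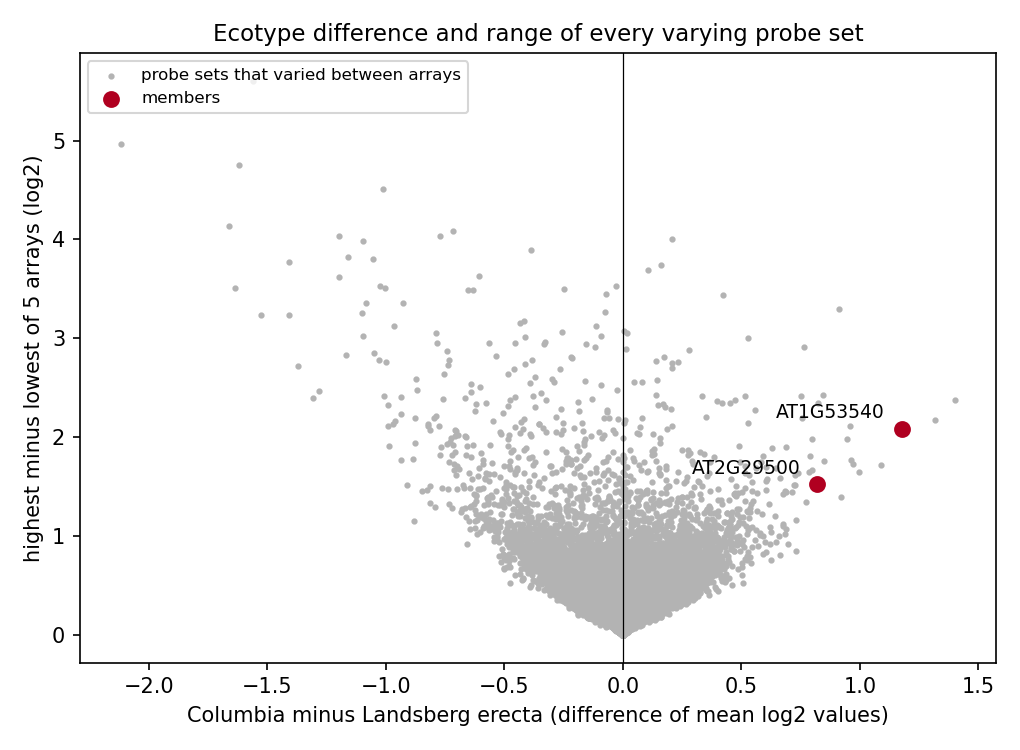
Each grey point is 1 of the 16428 probe sets that varied between arrays, with the difference of the mean log2 values (Columbia minus Landsberg erecta) on the horizontal axis and the span from the lowest to the highest of the 5 arrays on the vertical axis, and the 2 genes in red. AT1G53540 (1.18 and 2.08) and AT2G29500 (0.82 and 1.52) lie towards the right edge.

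The 2 genes shared their highest array but not their lowest. Both peaked on Columbia replicate 1, at 0.90 (AT1G53540) and 0.89 (AT2G29500) above their own means on the log2 scale. On Columbia replicate 2, AT1G53540 was 0.63 and AT2G29500 0.17 above its own mean. On Columbia replicate 3 both were close to their means, at -0.12 and -0.08. The Landsberg erecta arrays came in opposite orders: AT1G53540 was 0.96 higher on replicate 1 than on replicate 2, and AT2G29500 was 0.28 lower. The root mean square distance between the 2 centred sets of values was 0.46, and 15 of 13511 other probe sets naming 1 gene were closer to AT1G53540 than AT2G29500 was. From the side of AT2G29500, 1031 were closer than AT1G53540. A probe set with 1 value on all arrays lay 0.73 from AT1G53540 and 0.52 from AT2G29500, which were also the median distances. Both genes were taken with their separation of the ecotypes known, so their nearness was partly set by that choice.

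The measured chaperone and heat-induced genes outside class I had means on both sides of 0 between the ecotypes. Of 74 further genes listed for this response, 16 had a probe set naming 1 gene, and limma with Benjamini-Hochberg adjustment called 0 of them in favour of Columbia and 0 in favour of Landsberg erecta, the same share as over the whole array (0% each way). The counts at an unadjusted p under 0.05 were 0 and 0 as well, where 1.17% and 0.62% of all probe sets passed, so neither count sets these genes apart. For 8 genes the mean was higher in Columbia, for 6 it was higher in Landsberg erecta and 2 held 1 value on all arrays. Over all probe sets, 8742 means were higher in Columbia and 7686 in Landsberg erecta. The median difference of the 16 was 0.01, beside 0.00 over all probe sets. The ecotypes were without overlap for 0 of the 16 with Columbia above and 0 with Landsberg erecta above, near the shares over all probe sets of 3.92% and 2.92% (891 and 665).

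Small heat shock genes of other classes and compartments were measured for 9 of 13 listed loci, with 2 means higher in Columbia, 5 higher in Landsberg erecta and a median difference of -0.01. AT1G54050, which spanned most, had log2 values of 6.56, 7.02 and 5.13 on the Columbia arrays, against 6.62 and 6.67 on the Landsberg erecta arrays. The Landsberg erecta arrays thus lay inside the Columbia range (limma adjusted p = 1, 95% interval of the difference from -2.49 to 1.67). AT5G37670 had 5.06, 5.89 and 4.11 on the Columbia arrays, against 4.92 and 5.59 on the Landsberg erecta arrays. AT4G21870 had 7.06, 7.15 and 6.62 on the Columbia arrays, against 7.10 and 6.31 on the Landsberg erecta arrays. All 3 were highest on Columbia replicate 2, not on replicate 1 as the 2 class I genes were. ATHSP22.0 and AT1G52560 sat at the array's lowest value of 2.15 on all 5 arrays, where differences are not measured.

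The HSP70 family, ATP-driven refolding chaperones, was represented by 2 of 14 listed loci. AT3G09440 had log2 values of 11.45, 12.31 and 11.37 on the Columbia arrays, against 11.29 and 12.03 on the Landsberg erecta arrays. Hsp70-2 had 7.61, 8.09 and 7.35 on the Columbia arrays, against 7.67 and 8.23 on the Landsberg erecta arrays. In both genes, replicate 2 of each ecotype was the higher array of that ecotype, and the ecotypes overlapped.

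Co-chaperones and other heat-induced genes were measured for 5 of 14 listed loci. All 5 means were higher in Columbia, by 0.01 to 0.26 with a median difference of 0.02. Over all probe sets, too, more means were higher in Columbia (8742) than in Landsberg erecta (7686). With adjustment, limma called 0 of the 5. AT5G48570 had log2 values of 4.54, 4.16 and 3.65 on the Columbia arrays, against 4.05 and 4.16 on the Landsberg erecta arrays. It peaked on Columbia replicate 1, as the 2 class I genes did. Hop3, which encodes a protein linking HSP70 to HSP90, had 5.40, 5.82 and 5.36 on the Columbia arrays, against 5.14 and 5.40 on the Landsberg erecta arrays. Hop2, of the same family, had 9.66, 10.03 and 9.47 on the Columbia arrays, against 9.46 and 9.82 on the Landsberg erecta arrays. Both were highest on Columbia replicate 2. The other 2 listed genes of class I, the HSP90 and HSP100 families and the 21 heat shock factors had 0 genes named by the annotation used and were not analysed here.

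The heat response genes were also counted by the array on which they were highest or lowest, without a test against AT1G53540 and AT2G29500. Of the 14 that varied, 9 had their highest value on Columbia replicate 2 and 3 on Columbia replicate 1, ties counted for each array. Columbia replicate 3 held the lowest value of 8. The matching shares over all varying probe sets were not counted. Columbia replicate 1 lay above both other Columbia arrays for 2 of the 14, against 28.2% of the 16428 varying probe sets. Columbia replicate 2 lay above replicate 3 for 12 of the 14, against 44.6% of the 16428 varying probe sets. AT1G53540 and AT2G29500 had the same order (by 0.76 and 0.25), which was known when they were taken. The heat response lists were also chosen with earlier results known, and the 14 genes are not independent replicates. The median deviation from the gene's own mean was 0.30 on Columbia replicate 2 and -0.22 on replicate 3, where the median over all varying probe sets was 0.00 and -0.01. The probe set naming AT1G59860 and AT1G07400 followed this order, with 1.17 and -1.25 on those arrays. Its centred values were nearest to AT5G37670 (root mean square distance 0.29) and AT1G54050 (0.38) among the heat response genes, and farther from AT2G29500 (0.80) and AT1G53540 (0.90).

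**Figure D3:**
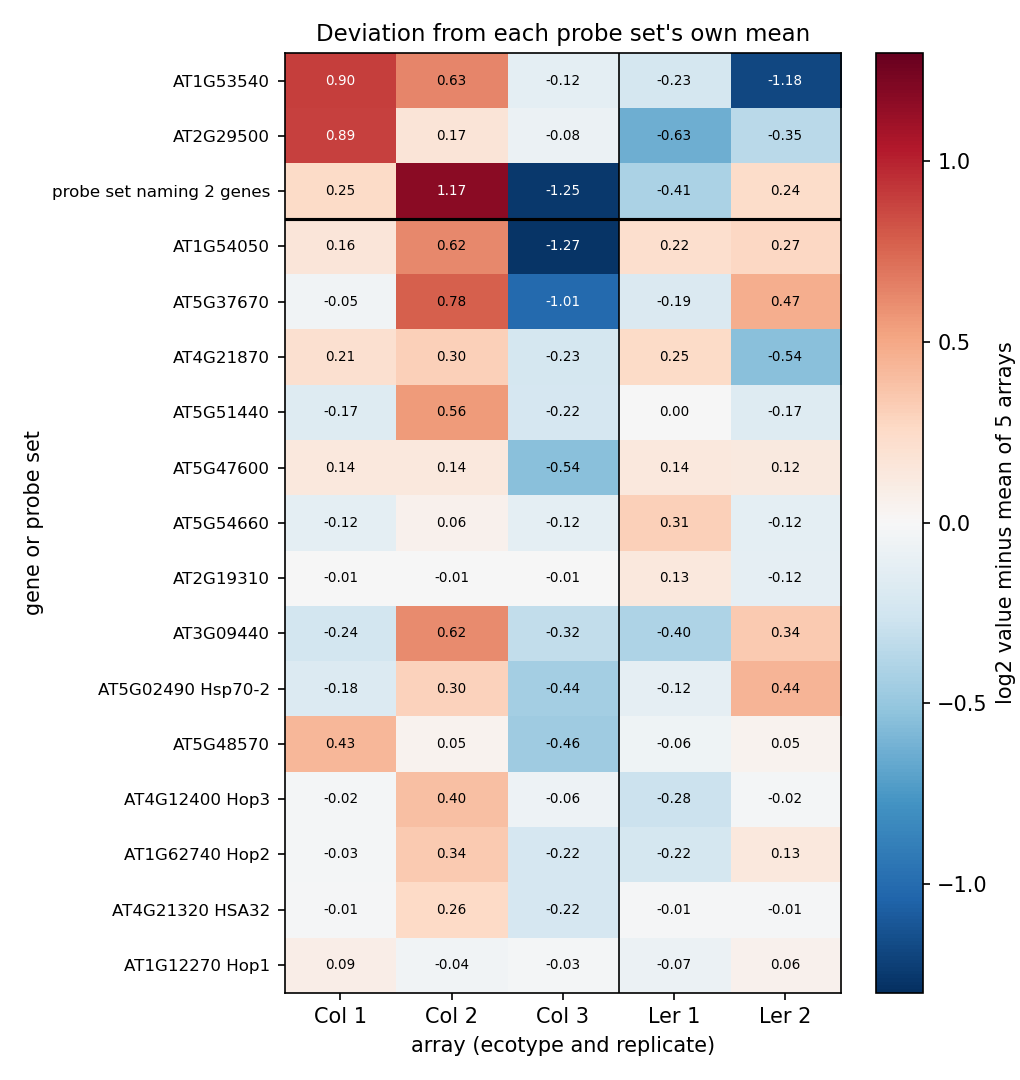
Each row is a gene or probe set and each column an array, Columbia at the left, with the log2 value minus the row's own mean over the 5 arrays as colour and number; the 3 class I rows stand above the black line and the 14 other heat response genes that varied below it. The class I genes AT1G53540 and AT2G29500 are highest on Columbia replicate 1, while 9 of the 14 genes below the line have their highest value on Columbia replicate 2.

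The genes nearest to each of the 2 were those with the smallest distances among 13511 probe sets. With 5 values per probe set, small distances come partly from the size of that search. To AT1G53540 the nearest was CCS, the copper chaperone of superoxide dismutase, at a root mean square distance of 0.32, with log2 values of 8.08, 8.40 and 7.34 on the Columbia arrays, against 7.57 and 6.94 on the Landsberg erecta arrays. CCS overlapped between the ecotypes and was highest on Columbia replicate 2, not on replicate 1. AT3G56160 came next at 0.41 with no overlap, and AT4G22490 at 0.42 with overlap. To AT2G29500 the nearest was SETH2, a gene of GPI anchor synthesis, at 0.17. SETH2 had log2 values of 6.19, 5.72 and 5.72 on the Columbia arrays, against 5.09 and 5.31 on the Landsberg erecta arrays, again without overlap. AT3G29970 followed at 0.19 and AT1G31710 at 0.22, both with overlap or ties between the ecotypes. AT3G29970 had 3.52, 2.65 and 2.28 on the Columbia arrays, against 2.28 on both Landsberg erecta arrays. Those values of 2.28 lie near the array's lowest value of 2.15. The mean of the 2 class I genes was approached most by AT3G29970 (0.28), SETH2 (0.30), AT3G07950 (0.31), AT1G09390 (0.32) and CCS (0.32). No gene of the heat response lists was among these, but only 16 of the 13511 probe sets compared stood for such genes. The nearest of the 16 to AT2G29500 was AT5G48570 (0.41), closer to it than AT1G53540 was (0.46). To AT1G53540 the nearest of the 16 was AT4G21870 (0.50).

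**Figure D4:**
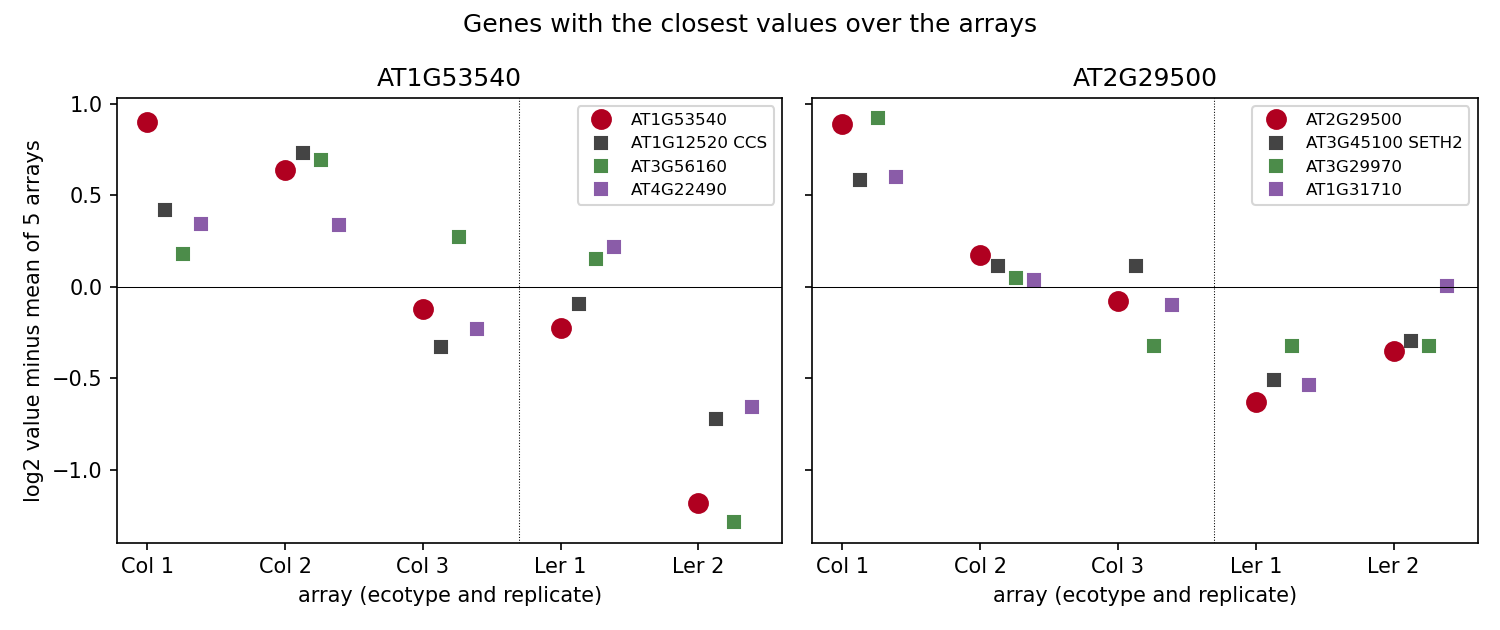
Log2 values minus each gene's own mean (vertical axis) on the 5 arrays (horizontal axis, Columbia left of the dotted line), for AT1G53540 (left panel) and AT2G29500 (right panel) as red circles and for the 3 nearest genes of each as squares shifted sideways. The genes nearest to AT2G29500 lie 0.17 to 0.22 from it and those nearest to AT1G53540 lie 0.32 to 0.42 from it.

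Measures of RNA and tissue are given here for the same arrays, and their part in the class I values was not tested. In bulk tissue, fewer cells of a type and less RNA per cell cannot be told apart. The log2 ratio of the GAPDH control's 3 prime to 5 prime probe set, a reading of RNA integrity and labelling, averaged 0.93 ± 0.04 in Columbia (SD, n = 3) and 1.24 ± 0.02 in Landsberg erecta (SD, n = 2). The same ratio of the ubiquitin control averaged 0.85 ± 0.11 in Columbia (SD, n = 3) and 0.87 ± 0.03 in Landsberg erecta (SD, n = 2), so that only the GAPDH ratio of these 2 controls separated the ecotypes. The 25S ribosomal RNA control averaged 8.01 ± 0.22 in Columbia (SD, n = 3) and 6.85 ± 0.44 in Landsberg erecta (SD, n = 2). Both measured markers of green tissue, RCA and LHCB4.1 (2 of 6 listed), were higher on every Columbia array, as were 3.92% of probe sets. Their summed level was 15.2 to 15.3 in Columbia and 15.0 to 15.1 in Landsberg erecta (log2 of the sum). The measured anther markers AMS, EMS1 and A9 (3 of 6 listed) had a summed level of 7.77 to 9.53 in Columbia and 9.16 to 9.67 in Landsberg erecta, overlapping between the ecotypes and lowest on Columbia replicate 3, where 8 of the 14 varying heat response genes and the shared class I probe set were also lowest. GUT2, the 1 measured marker of 4 for secondary walls of stems, ran from 5.79 to 8.27 in Columbia and from 7.68 to 8.01 in Landsberg erecta, again overlapping, with its lowest value on Columbia replicate 1. CLV3 and LAS, 2 of 11 listed markers of the labelled meristem and the ones measured, were at the array's lowest value on all arrays. The measured markers thus did not bear out the meristem label.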

How the data were processed

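The deposited table gives 22810 probe sets on 5 Affymetrix arrays as log2 values, per its range. The authors' background correction, normalization and summary method are not given in the sources used here, and centring stays unknown beyond array medians of 5.44 to 5.50. Per the labels' protocols, cRNA was biotin-labelled from total RNA. Leaving out 64 controls, 22746 probe sets were fitted together with limma 3.58.1 in R 4.3.3 (lmFit, eBayes, Columbia minus Landsberg erecta, no covariate, Benjamini-Hochberg), which was tested on simulated data. The prior had 0.359 degrees of freedom. The platform annotation, updated to RefSeq names (TAIR10.1), named exactly 1 gene for 13513 probe sets, of which 13436 matched, and several for 503; no coordinates or sequences were used. A distance is the root mean square, over arrays, of differences between log2 values centred on each probe set's mean.

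The members and lists were chosen with earlier results of these data known. Named were all members, up to 3 genes per list with the largest range, any past the threshold, and the 3 nearest genes per member and 5 nearest to their mean. Python 3.11.15 with matplotlib 3.10.9 drew the figures. Alternatives were quantile normalization, equal array medians, each array left out, the replicate number as a block, filters on low means, eBayes with a trend and an unadjusted threshold.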

Additional observations from a re-analysis of the deposited data

How the results depend on the processing

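The differences of AT1G53540 and AT2G29500 kept their direction in all 16 alternative values. Both had every Columbia array above every Landsberg erecta array, so leaving out an array or blocking by replicate could not reverse the direction. Each difference moved by less than its residual SD, a wide margin of 0.58 for AT1G53540 and 0.43 for AT2G29500. With single arrays left out, AT1G53540 ranged from 0.70 to 1.65 and AT2G29500 from 0.54 to 1.02. The replicate numbers do not pair arrays in the labels, and deviations from the ecotype means correlated across probe sets at -0.02 for replicate 1 and 0.08 for replicate 2. With the replicate block the differences were 1.47 and 1.02, the values without Columbia replicate 3, which has no partner; no call changed. Heat response genes called ranged from 0 to 1 in each direction with single arrays left out. The 1 called was AT2G19310, higher in Columbia without Landsberg erecta replicate 1 and lower without replicate 2; its 3 Columbia values are identical, and such a fit takes the spread of the 1 Landsberg erecta array left from Columbia. Over all probe sets, calls ranged from 0 to 356 higher in Columbia and from 0 to 658 higher in Landsberg erecta, made when either Landsberg erecta array was absent; the looser threshold of an unadjusted p under 0.05 gave 265 and 141. The other planned settings gave 0 calls in both directions. Values at the shared minimum carry no order.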

Other observations

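Chaperonins, barrel-shaped complexes that fold newly imported proteins in plastids, were chosen after their values were seen, by the word chaperonin in the RefSeq names, which left 3 of 9 genes with a probe set naming 1 gene. Cpn60beta2 had log2 values of 12.33, 12.13 and 11.71 on the Columbia arrays, against 11.78 and 11.84 on the Landsberg erecta arrays. Cpn60beta4 had 7.83, 7.43 and 7.66 on the Columbia arrays, against 7.50 and 7.21 on the Landsberg erecta arrays. Cpn60beta3 had 8.93, 9.07 and 8.93 on the Columbia arrays, against 8.83 and 8.97 on the Landsberg erecta arrays. Cpn60beta2 and Cpn60beta4 were highest on Columbia replicate 1, and Cpn60beta3 on Columbia replicate 2. The ecotypes overlapped in each, the differences of the means were 0.25, 0.28 and 0.08 in the order named, and none passed (limma adjusted p = 1 for each).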
